A study of Mus musculus with 6 samples.

Results

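Samd4, Cpeb3 and Cnot6l encode proteins that act on messenger RNA after it is made, and each of the 3 genes gave rise to circular RNAs (circRNAs) in mouse brown preadipocytes undergoing adipogenesis. A total of 13 circRNAs of the 3869 listed lay wholly inside the 3 genes on the gene's strand: 5 in Samd4 (chromosome 14, plus strand), 5 in Cpeb3 (chromosome 19, minus strand) and 3 in Cnot6l (chromosome 5, minus strand). Positions are given in the mouse build mm9, as deposited. The genes were selected on earlier results of the same libraries, among them the calls for day 8 against day 0, in which Samd4 and Cpeb3 each had 3 circRNAs called. That comparison is therefore given as a description with no p-value.

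Cells of the stromal vascular fraction, which holds the fat precursors, came from tissue labelled inguinal brown fat (BAT) of 6-week-old C57BL/6 mice. They were grown to 90% confluence and induced for 4 days with dexamethasone at 0.3 mM, 3-isobutyl-methylxanthine at 0.63 mM and insulin at 2.85 mM (doses as the labels give them), then kept for 4 further days in 200 nM insulin and 10 nM of the thyroid hormone T3. RNA was taken at day 0, before induction, at day 4, after induction, and at day 8, after maturation, with 2 libraries per day. All 3 groups share strain and source, and no genetic change or untreated time course was part of the design, so day and medium cannot be told apart. The labels do not say whether replicates were separate cultures or animals, so p-values measure only how far these samples differ, which may reflect technical variation alone. Ribosomal and linear RNA were removed, so the messenger RNAs of the 3 genes and the marker messages of brown fat were not measured, and the labelled cell type could not be checked against them. In whole cultures, fewer cells of a type and less RNA per cell cannot be told apart.

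A circRNA forms by back-splicing: the end of an exon is joined to the start of the same exon or of one upstream, which closes a ring without free ends. It is recognised in sequencing by reads across that junction. Samd4 (Smaug1) has a sterile alpha motif domain that binds stem-loops in messenger RNAs, lowers their translation and brings in the CCR4-NOT deadenylase, and mice with mutant Samd4 are lean. Cpeb3 is a member of the family that binds cytoplasmic polyadenylation elements and regulates translation, studied mostly in neurons. Cnot6l (Ccr4b) is one of the catalytic subunits of CCR4-NOT, the complex that shortens poly(A) tails. These are roles of the proteins, not of the circRNAs.

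The junctions show which exons each gene used. Each circRNA was matched to exons by length alone: its span in mm9 was compared with the distance from the start of one exon to the end of another in the GENCODE M21 transcripts of the gene (GRCm38). A match was kept only if it held the order of the circRNAs along the gene. Of the 13 circRNAs, 11 kept exactly 1 pair of exon edges, while 1 other, of Samd4, matched by length but not in order. After this selection, the matched circRNAs in all 3 genes lay at the same distances from each other in mm9 as their exons did in GRCm38. The sequences are predictions from those transcripts, not reads of these libraries. They are shown 5′ to 3′ for the abundant circRNAs and for those that share an edge, except mmu_circ_0007739 of Cpeb3 (exon 8 to exon 3). The last 30 bases of the last exon are in lower case. The first 30 bases of the first exon, to which the last exon is joined, are in capitals.
Samd4 exon 3 to exon 3 (mmu_circ_0000529): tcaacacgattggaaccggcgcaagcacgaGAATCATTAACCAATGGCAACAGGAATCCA
Samd4 exon 4 to exon 3: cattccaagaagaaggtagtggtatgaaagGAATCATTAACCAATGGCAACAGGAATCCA
Cpeb3 exon 4 to exon 3: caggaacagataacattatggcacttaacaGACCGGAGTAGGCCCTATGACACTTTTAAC
Cpeb3 exon 7 to exon 3 (mmu_circ_0007740): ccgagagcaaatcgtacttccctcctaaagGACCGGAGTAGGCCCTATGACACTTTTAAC
Cpeb3 exon 10 to exon 3 (mmu_circ_0007738): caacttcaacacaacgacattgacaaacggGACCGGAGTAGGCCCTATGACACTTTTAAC
Cpeb3 exon 10 to exon 9 (mmu_circ_0007736): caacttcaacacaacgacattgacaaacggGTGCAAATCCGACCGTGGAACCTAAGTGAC
Cnot6l exon 4 to exon 2 (mmu_circ_0012878): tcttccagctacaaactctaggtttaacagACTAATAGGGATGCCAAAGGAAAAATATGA
Cnot6l exon 5 to exon 2 (mmu_circ_0012877): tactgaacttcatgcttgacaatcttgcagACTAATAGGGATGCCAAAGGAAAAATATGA
The capitals repeat within a gene because one exon start was joined to several exon ends. In Cpeb3, the same lower-case run also appears in the last 2 junctions, since the end of exon 10 was joined both to exon 3 and to exon 9.

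The exon start that carried the most reads lay in each gene behind its longest intron. In Samd4-201, a transcript of 13 exons, exon 3 follows an intron of 131260 bases, the longest of 12, and precedes one of 36054 bases, the second longest. The main Samd4 circRNA, mmu_circ_0000529 (chr14:47635952-47636470), is this single exon of 519 bases. In Cpeb3-201, of 11 exons, exon 3 follows the longest of 10 introns, of 34745 bases, and was the first exon of 4 of the 5 circRNAs, which ended at exon 4, 7, 8 or 10. In Cnot6l-202, of 12 exons, exon 2 follows the longest of 11 introns, of 27559 bases. The main Cnot6l circRNA, mmu_circ_0012878 (chr5:96557962-96563151), holds exons 2 to 4 with 395 exonic bases if its introns are spliced out, and its other flanking intron, of 22637 bases, is the second longest. In all, 8 of the 11 matched circRNAs began behind the longest intron of their transcript, although these 8 use only 3 exon starts. All 11 lie inside the annotated coding part. The other 2, both of Samd4, start at the same base (chr14:47529786-47530052 and chr14:47529786-47636470). The first has the length of exon 1 of Samd4-205, a processed transcript that begins downstream of exon 3 of Samd4-201, while the circRNA lies upstream of exon 3, so no match was kept, and the second had no match.

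**Figure D1:**
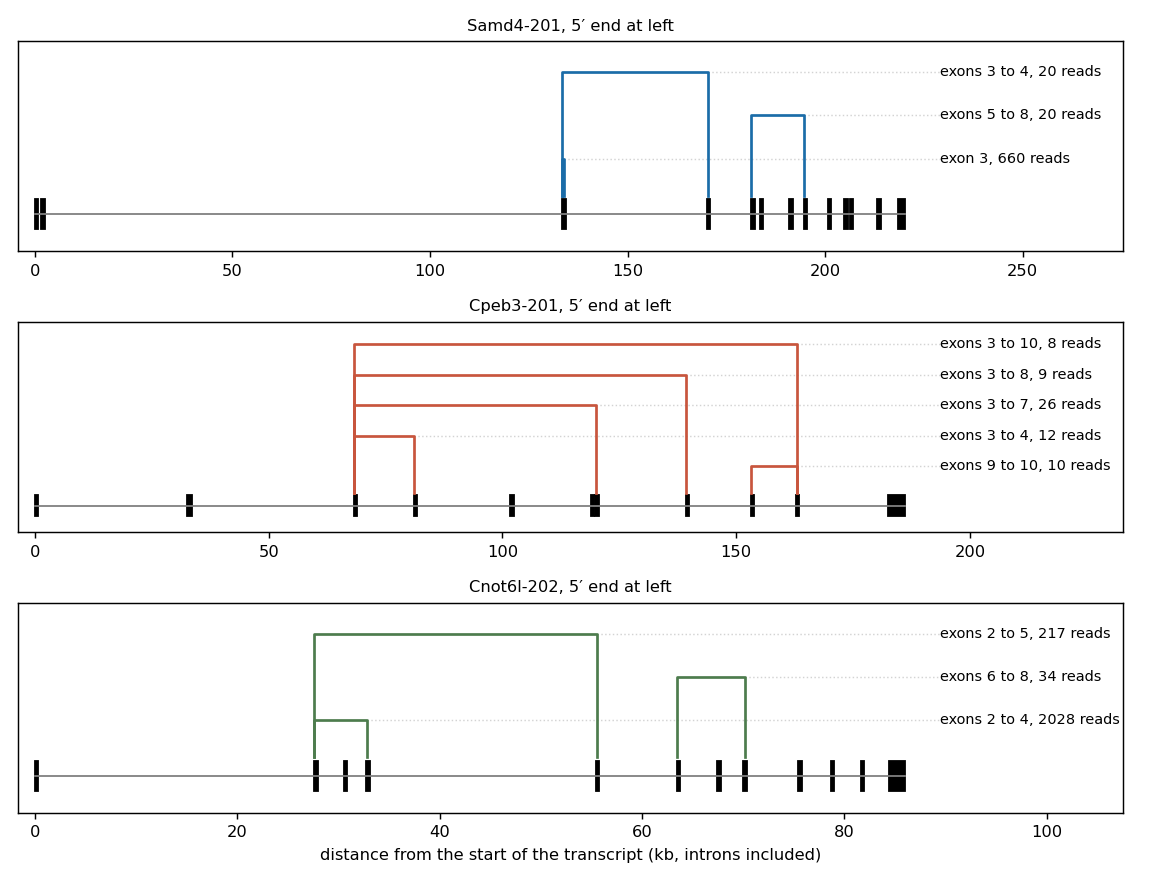
Exons (black, narrow ones widened to be visible) along 1 GENCODE transcript per gene, against distance from the transcript start in kb; each bracket joins the first and last exon of 1 circRNA matched by length, with its inferred reads summed over 6 libraries. Brackets start together at exon 3 of Samd4, exon 3 of Cpeb3 and exon 2 of Cnot6l; the 2 unmatched Samd4 circRNAs are not drawn.

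Shared edges were frequent among the 13 circRNAs. At least 1 edge was shared with another listed circRNA of the same strand in 11 of 13 (84.6%), against 48.9% of all 3869, and both edges were shared in 3 (23.1%, against 9.36%). The median span was 13373 bases, against 7871 in the whole list. A span of at least 50 kb was found in 4 of 13 (30.8%, against 5.63%), of which 3 were Cpeb3 circRNAs with the same first exon. The public catalogue circBase held 9 of 13 (69.2%, against 63.1%). These are descriptions of genes with several circRNAs each, and 302 of 2509 loci had 3 or more.

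Values were deposited as CPM, the circRNA reads of a library scaled to a fixed total. They come in whole steps, which gives 40384 to 45733 inferred reads per library, with 1 read worth 21.9 to 24.8 CPM. No value equals a single read, so a 0 may stand for 1 read. Each listed circRNA had reads in both replicates of some day. For all 5 Cpeb3 circRNAs this was day 8 alone, for 3 of the 5 Samd4 circRNAs it was day 0 alone, and the other 5 circRNAs met the condition on 2 or 3 days. For a circRNA listed through a single day, the list favours higher values on that day than on others. The difference of that day from other days is therefore given as values without a p. Differences were tested with limma on log2(CPM + 43.7), the pseudocount being the smallest value above 0, over all 3869 circRNAs or, for sums per gene, over 2509 loci. A circRNA was called where the adjusted p (Benjamini-Hochberg) was under 0.05. An exact test of 2 libraries against 2 cannot give a p under 0.333. The comparisons with day 4 share libraries with the one behind the choice of genes, and are not independent evidence.

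Samd4 circRNAs fell between day 0 and day 4, and the levels of days 4 and 8 overlapped. The sum over the 5 circRNAs was 6010 and 4576 CPM in the 2 libraries of day 0, 1246 and 2055 at day 4, and 1592 and 1800 at day 8. Both day 0 libraries were above all 4 later ones. The means were 5293 ± 1013, 1651 ± 572 and 1696 ± 147 CPM (SD, n = 2 each). The sum at day 4 was 3.21-fold lower than at day 0 (log2 fold change -1.68, SE 0.28, limma adjusted p = 0.0185), where 7.97% of loci were called. Between day 4 and day 8 the difference was 0.08 (SE 0.28, limma adjusted p = 0.931), where 9.88% of loci were called, and between day 0 and day 8 it was -1.61 (SE 0.28). The call at day 4 was lost whenever any 1 of the 6 libraries was left out (limma adjusted p = 0.0743 to 0.163), with a log2 fold change of -2.04 to -1.33. For the 3 circRNAs listed through day 0 alone, the list favours lower values at day 4. They contributed 25 and 17 of the 259 and 189 inferred Samd4 reads of day 0. The choice of genes used the same day 0 libraries and favours the same direction. The test of the sum at day 4 against day 0 is therefore not independent evidence.

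**Figure D2:**
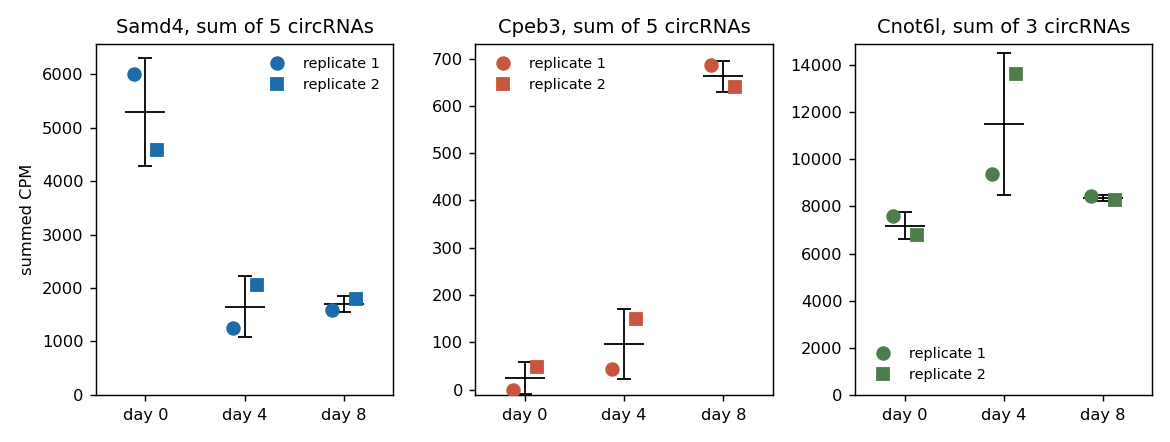
Summed CPM of the circRNAs of each gene (vertical axis, linear, a separate scale per gene) at days 0, 4 and 8; points are libraries, long dashes means and bars SD (n = 2). Samd4 is highest in both day 0 libraries, Cpeb3 in both day 8 libraries, and Cnot6l in both day 4 libraries.

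One circRNA made up most of the Samd4 signal. The single-exon circRNA mmu_circ_0000529 had 5313 and 4068 CPM at day 0 (229 and 168 inferred reads), 1246 and 1931 at day 4 (57 and 78 reads) and 1519 and 1563 at day 8 (62 and 66 reads). Its levels at days 4 and 8 lay below both day 0 libraries and overlapped each other. It fell by 1.56 on the log2 scale to day 4 (SE 0.26, limma adjusted p = 0.0178). Without any 1 library the adjusted p was 0.0678 to 0.181. It held 88.4% (95% Clopper-Pearson interval 83.9 to 92.0) and 88.9% (83.5 to 93.0) of the Samd4 reads at day 0. At day 4 its share was 100% (93.7 to 100) and 94.0% (86.5 to 98.0), and at day 8 it was 95.4% (87.1 to 99.0) and 86.8% (77.1 to 93.5). The intervals of all 6 libraries overlap, except that of the first day 4 library with those of both day 0 libraries and of the second day 8 library; they cover counting error only.

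The other 4 Samd4 circRNAs were rare, and 2 of them had reads only at day 0. The 267-base circRNA at chr14:47529786-47530052 had 325 and 121 CPM at day 0 (14 and 5 inferred reads) and was listed at 0 in the other 4 libraries. The one from the same start to the end of exon 3 (chr14:47529786-47636470, span 106685 bases) had 116 and 121 CPM at day 0 (5 reads in each) and was likewise listed at 0 afterwards. The circRNA of exons 5 to 8, mmu_circ_0005249 (chr14:47683895-47697267), had 6 and 7 reads at day 0, 0 in both day 4 libraries, and 0 and 7 at day 8. These 3 are the circRNAs listed through day 0 alone. The exons 3 to 4 circRNA (chr14:47635952-47672788) ranged from 0 to 5 reads per library and did not pass the test at day 4 against day 0 (limma adjusted p = 0.622).

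At day 4 against day 0, 3 of 5 Samd4 circRNAs were called lower and 0 higher, where 4.26% of all circRNAs were called lower and 3.85% higher. Of these 3, the 2 that had reads only at day 0 were listed through it alone, which favours lower values at day 4. The count is therefore no evidence. The single call that the condition of the list does not favour is that of mmu_circ_0000529. The choice of Samd4, which used the same day 0 libraries, does favour it, so it is not independent evidence either. A stricter filter asked for 10 or more reads in 2 or more libraries and left 1368 circRNAs, of which 3.65% were called. Among them mmu_circ_0000529 was the single Samd4 member, and it was called lower (limma adjusted p = 0.0287). No Samd4 circRNA was called between days 4 and 8.

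**Figure D3:**
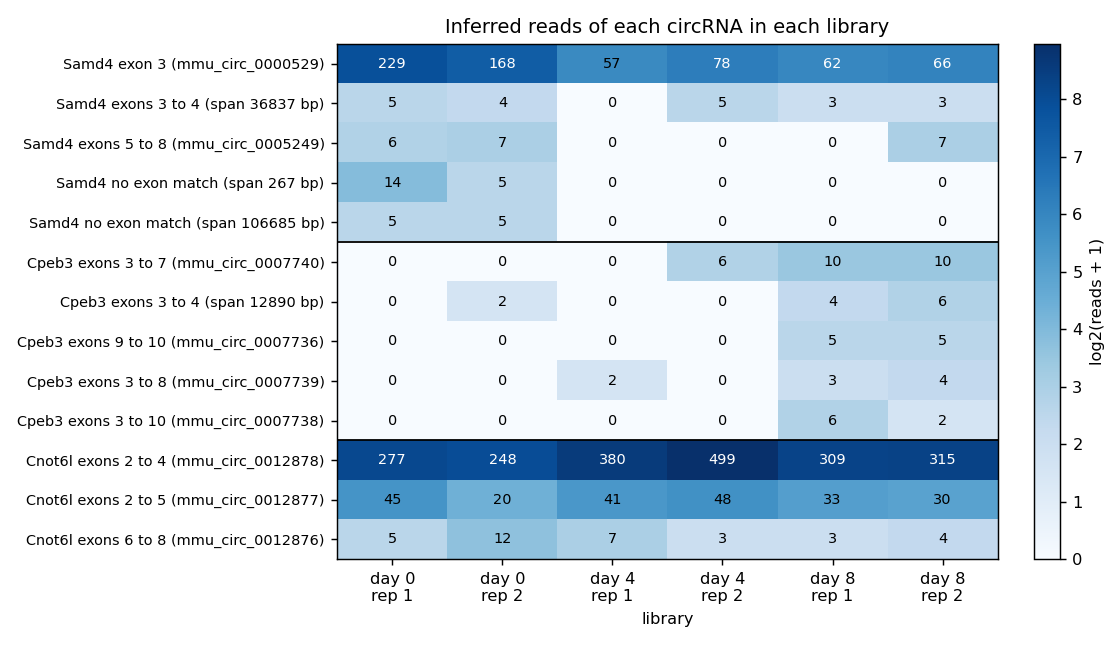
Inferred reads of the 13 circRNAs (rows) in the 6 libraries (columns); the number in each cell is the read count and the shade is log2(reads + 1). The last 2 Samd4 rows are at 0 after day 0, the 5 Cpeb3 rows are above 0 in both day 8 libraries, which is what put them in the list, and the 3 Cnot6l rows are above 0 throughout.

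Cpeb3 circRNAs had few reads, most of them at day 8. All 5 entered the list through day 8 alone, so their presence in both day 8 libraries is the condition of the list and not a finding. The libraries of day 0 had reads of 0 and 1 of them, and those of day 4 of 1 each. The sum was 0 and 48.4 CPM at day 0 (0 and 2 inferred reads), 43.7 and 149 at day 4 (2 and 6 reads), and 686 and 640 at day 8 (28 and 27 reads). Both day 8 libraries were above the other 4, and days 0 and 4 overlapped. The means were 24.2 ± 34.2, 96.2 ± 74.1 and 663 ± 32.8 CPM (SD, n = 2 each). On the log2(CPM + 43.7) scale the sum at day 4 differed from day 0 by 1.03 (SE 0.73, limma adjusted p = 0.456). Day 8 differed from day 4 by 2.44 (SE 0.73) and was not called, though it was called when the day 0 libraries were not fitted. The list favours this direction, as all 5 circRNAs were listed through day 8 alone. No p is therefore given, and nothing is read from either fit. From day 0 to day 8 the difference was 3.48 (SE 0.73). With so few reads before day 8 the sizes are set by the pseudocount. With 1 CPM the 2 steps were 3.54 and 3.02 and the whole difference 6.56, and with 0.1 CPM they were 5.20, 3.04 and 8.23, so which step is larger depends on it.

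No single circRNA held most of the inferred Cpeb3 reads at day 8. The most abundant, mmu_circ_0007740, exons 3 to 7 (chr19:37162028-37213711), had 6 reads in the second day 4 library, all the Cpeb3 reads there. In each day 8 library it had 10. It held 35.7% (95% Clopper-Pearson interval 18.6 to 55.9) and 37.0% (19.4 to 57.6) of the Cpeb3 reads at day 8. With 28 and 27 reads, these intervals do not exclude a majority. The exons 9 to 10 circRNA, mmu_circ_0007736 (chr19:37119012-37128864), was listed at 0 in all 4 earlier libraries and had 122 and 118 CPM at day 8 (5 reads in each). The exons 3 to 10 circRNA, mmu_circ_0007738 (chr19:37119012-37213711), which ends at the same exon, was also listed at 0 before day 8 and then had 147 and 47.4 CPM (6 and 2 reads). The exons 3 to 4 circRNA (chr19:37200822-37213711) had 0 to 6 reads per library, and mmu_circ_0007739, exons 3 to 8 (chr19:37142663-37213711), had 0 to 4.

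At day 8 against day 4, 2 of 5 Cpeb3 circRNAs, mmu_circ_0007736 and mmu_circ_0007738, were called higher and 0 lower, where 6.02% of all circRNAs were called higher and 3.54% lower. Both were listed through day 8 alone, so nothing is read from that count. None was called between days 0 and 4. Of the 5, only mmu_circ_0007740 met the stricter filter, and it was not called at day 8 against day 4, where 1.02% of the 1368 circRNAs were.

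Cnot6l circRNAs were present at every stage. The sum over the 3 circRNAs was 7587 and 6780 CPM at day 0, 9359 and 13619 at day 4, and 8452 and 8267 at day 8. Both day 4 libraries were above the other 4, and they differed more from each other than the libraries of any other day. The means were 7184 ± 571, 11489 ± 3013 and 8360 ± 131 CPM (SD, n = 2 each). The log2 difference was 0.65 from day 0 to day 4 (SE 0.20, limma adjusted p = 0.113) and -0.43 from day 4 to day 8 (SE 0.20, limma adjusted p = 0.276), so neither step passed the test. From day 0 to day 8 it was 0.22 (SE 0.20).

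Most Cnot6l reads came from the exons 2 to 4 circRNA, mmu_circ_0012878. It had 6427 and 6005 CPM at day 0 (277 and 248 inferred reads), 8309 and 12356 at day 4 (380 and 499 reads), and 7570 and 7462 at day 8 (309 and 315 reads). The day 4 libraries were the highest, and day 8 lay above day 0. The step to day 4 was 0.70 (SE 0.22, limma adjusted p = 0.121) and the step to day 8 was -0.43 (SE 0.22, limma adjusted p = 0.343). The exons 2 to 5 circRNA, mmu_circ_0012877 (chr5:96535235-96563151), which shares its first exon, had 1044 and 484 CPM at day 0, 897 and 1189 at day 4, and 808 and 711 at day 8. Its days overlapped, apart from days 4 and 8. The third, mmu_circ_0012876, exons 6 to 8 (chr5:96520603-96527332), had 3 to 12 reads per library. None of the 3 was called in either step.

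The main circRNA held 84.7% to 90.7% of the Cnot6l reads in the 6 libraries. The share of mmu_circ_0012878 was 84.7% (95% Clopper-Pearson interval 80.3 to 88.4) and 88.6% (84.3 to 92.1) at day 0, 88.8% (85.4 to 91.6) and 90.7% (88.0 to 93.0) at day 4, and 89.6% (85.8 to 92.6) and 90.3% (86.7 to 93.2) at day 8. The intervals of all 6 libraries overlap, which does not show that the shares are equal, and they cover counting error only. The main circRNA of Samd4 likewise held most of its gene's reads in every library. That of Cpeb3 held 35.7% and 37.0% at day 8, of only 28 and 27 reads.

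**Figure D4:**
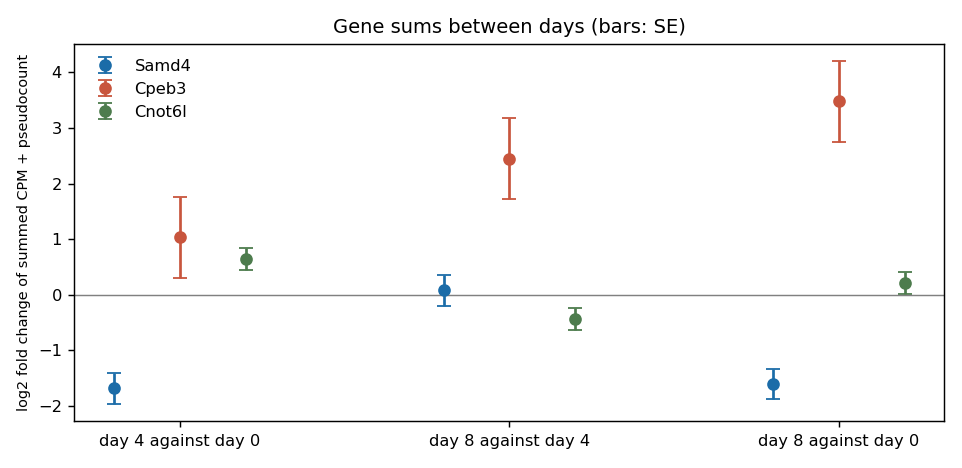
Log2 fold change of the summed CPM (with the pseudocount of 43.7 CPM) of each gene for the 3 comparisons of days, from limma; bars are SE. Samd4 drops at the first step (-1.68), the Cpeb3 steps of 1.03 and 2.44 were not called and change order with a smaller pseudocount, and the Cnot6l steps of 0.65 and -0.43 were not called.

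Between day 0 and day 8, the comparison known when the genes were picked, 3 Samd4 circRNAs were called lower, 3 Cpeb3 circRNAs higher and the other 7, with all 3 of Cnot6l, were not called. Among all circRNAs 5.01% were called lower and 7.31% higher in that comparison. The 3 Samd4 circRNAs were those called lower at day 4, and all but mmu_circ_0000529 were listed through day 0 alone. The 3 of Cpeb3 were mmu_circ_0007736, mmu_circ_0007738 and mmu_circ_0007739, all listed through day 8 alone.

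Loci with the most similar course were sought by Pearson's r of log2(summed CPM + 43.7) over the 6 libraries, which the loci share. They were taken from 839 loci with a mean of at least 10 inferred reads. For Samd4 they were chr2:129636224-129636973 (plus strand, r = 0.980) and chr3:27387159-27407461 (minus strand, r = 0.979), for Cpeb3 chr2:146212964-146232168 (minus, r = 0.994) and chr17:80049642-80081022 (plus, r = 0.977), and for Cnot6l chr3:78770324-78770697 (minus, r = 0.978) and chr5:23485306-23505837 (minus, r = 0.972). An r over 0.9 was reached by 2.74% of the loci for Samd4, 2.62% for Cpeb3 and 1.55% for Cnot6l. With 6 libraries in 3 pairs, r mainly records which days are high, and it is given as a description. It does not record the size of a change. The chr17 locus had means of 2517, 2826 and 3603 CPM at days 0, 4 and 8, against 24.2, 96.2 and 663 for Cpeb3. The chr2 locus on the minus strand had 71.6, 143 and 749. No genes are named for these loci, because the annotation used here is of another build.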

How the data were processed

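CircRNA-enriched total RNA of 6 libraries was sequenced. Per the submitters' processing notes, FastQC 0.11.9, HISAT2 2.2.0 and the mm9 build were used; the sources used here name no circRNA caller. The authors deposited 1 table of circRNA levels in CPM with 1 column per library, each summing to 1000000, and with circBase names. The smallest value of a library was taken as 2 inferred reads.

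The 13 members were taken by position. Members and lists were chosen with earlier results of these data known. CPM were used as deposited in limma 3.58.1 (R 4.3.3, trend, 6 libraries, 1 mean per day), with log2(CPM + 43.7). Sums per gene were fitted in a table of 2509 loci, in which other circRNAs were joined by overlap on a strand. Fits were tested on simulated data. Alternatives were other pseudocounts, a read filter, TMM and median-of-ratios scaling, fewer libraries and a replicate block. Values per library are given for members with a mean of at least 10 reads or called in a comparison with day 4, and ranges or reads for the others. The 2 most similar loci per gene were taken by r. Other genes of the pathway were not assigned to circRNAs, for lack of an mm9 annotation here. RefSeq promoters were not used. Exon lengths come from GENCODE M21.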

Additional observations from a re-analysis of the deposited data

How the results depend on the processing

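The 9 comparisons of gene sums had 117 alternative values: 106 kept their direction and side of the threshold (for day 8 against day 0, which has no test, their size within the spread), 6 lost the call, 1 gained it, 2 of day 8 against day 0 moved in size and 2 changed sign. The sign changes were of the Samd4 sum at day 8 against day 4, which was 0.08 and not called: leaving out the first day 4 library gave -0.27, leaving out the second day 8 library gave -0.0083, and leaving out the second day 4 library gave 0.43. The 6 losses were all of the Samd4 sum at day 4 against day 0 (log2 -2.04 to -1.33, leaving out 1 library each). The gain was the Cpeb3 sum at day 8 against day 4 in the fit of 4 libraries (2.44). Nothing is read from it, as the Cpeb3 circRNAs were all listed through day 8 alone. The Cpeb3 sum at day 8 against day 0 moved to 6.56 and 8.23 with pseudocounts of 1 and 0.1 CPM, and at day 4 against day 0, still not called, from 1.03 to 3.54 and 5.20. The counts of called circRNAs among the 13 were 3, 2 and 6 for day 4 against day 0, day 8 against day 4 and day 8 against day 0. Under the stricter filter (10 reads, 2 libraries) they were 1, 0 and 1, where only 4 of the 13 were tested and 3.65%, 1.02% and 6.73% of 1368 circRNAs were called, and the share of the main circRNA became 100% for Samd4 and, at day 8, Cpeb3, of which 1 circRNA is left, and 90.8% for Cnot6l at day 8. Leaving out 1 library each they were 0 to 0, 0 to 2 and 0 to 5; such fits have fewer libraries and leave out circRNAs above 0 in fewer than 2 of those remaining. Fits of 4 libraries called mmu_circ_0005249 lower at day 4, but no longer the Samd4 circRNA at chr14:47529786-47530052. At day 8 against day 4 they no longer called mmu_circ_0007738. They did call the Cpeb3 exons 3 to 4 circRNA (chr19:37200822-37213711) higher at day 8 than at day 4, as did TMM and median-of-ratios factors. All these circRNAs were listed through 1 day alone, which favours the directions of these calls, so nothing is read from them. Rescaling moved the median of all circRNAs by at most 0.06 on the log2 scale. Deviations of same-numbered libraries did not correlate over all 3869 circRNAs (r = -0.0136, -0.0067 and -0.0071). Only 1368 of these had 10 or more reads in 2 or more libraries, and counting error can hide a pairing. The r values therefore cannot show whether the numbers pair cultures or animals. With a replicate block the counts of called circRNAs were 3, 2 and 5. The Samd4 sum at day 4 against day 0 was then -1.68 (limma adjusted p = 0.0252). The planned count test was not run, because the deposited values are not counts.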
